A study of Rattus norvegicus with 8 samples.

Results

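The integrated stress response genes examined were Atf4, Atf5, Ddit3, Atf3, Trib3 and Asns, together with the mitokine genes Fgf21 and Gdf15, whose products are secreted by tissues with stressed mitochondria. The 8 genes were chosen by symbol, and each had 1 probe among the 22523 probes, naming 13337 genes, of the bead array. Of these 8 probes, 4 were above background on every array (Atf4, Atf5, Ddit3 and Atf3) and 4 were at background on every array (Fgf21, Gdf15, Trib3 and Asns). None of the 4 that could be tested differed between rats fed compound 177 and control rats by more than the spread between rats. Thigh skeletal muscle came from Wistar Han rats, 4 fed 150 ppm of compound 177 (a sulfonyl isoxazoline) for 28 days and 4 controls fed standard laboratory chow over the same period, with 1 Illumina bead array per rat. The series is titled as modelling muscle mitochondrial toxicity of foreign compounds, and the question here is whether the transcripts that report such stress in muscle differed after feeding.

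In the integrated stress response, kinases that sense amino acid shortage, misfolded protein, haem shortage or double-stranded RNA phosphorylate the translation initiation factor eIF2, which lowers protein synthesis in general while favouring translation of Atf4. ATF4 then switches on genes for amino acid synthesis and transport and further transcription factors. In mammalian cells, damaged mitochondria reach the haem-regulated kinase of this set, HRI, through the protease OMA1 and its substrate DELE1. In muscle with defects of the respiratory chain, FGF21 and GDF15 are known as hormones released downstream of this pathway. Because ATF4 and ATF5 are controlled largely at translation, their transcript level does not report their protein level.

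ATF4 binds a composite of a C/EBP and an ATF site in the promoters of its targets. The letters TTNCATCA, on either strand, were looked for in the RefSeq promoter windows of the GRCr8 build, which run from 250 bases before to 50 bases after each annotated start. The promoter table gave 8 windows for 7 of the 8 genes, Gdf15 having 2. A match was found in 2 of the 8 windows, those of Fgf21 and Trib3, and in 3.98% of all 33469 windows. The windows of Atf5 (chr1:104434746-104435045) and Asns (chr4:36769366-36769665), both on the minus strand, lie inside genes that end at 104437611 and 36769970. The sequence before the outer start of these genes was thus not searched. In the sequences of the Fgf21 and Trib3 windows the match is in capitals. The probes of Fgf21 and Trib3 stayed at background in both groups, as did those of Gdf15 and Asns, whose windows held no match. The match starts at position -143 from the annotated start in Fgf21 (chr1:105221327-105221626, minus strand) and at position -21 in Trib3 (chr3:161275484-161275783, minus strand).
Fgf21: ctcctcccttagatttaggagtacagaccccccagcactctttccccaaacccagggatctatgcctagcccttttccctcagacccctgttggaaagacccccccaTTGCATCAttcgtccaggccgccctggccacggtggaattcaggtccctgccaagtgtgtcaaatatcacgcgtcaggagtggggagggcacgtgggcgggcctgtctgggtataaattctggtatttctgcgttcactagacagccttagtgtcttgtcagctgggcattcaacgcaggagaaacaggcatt
Trib3: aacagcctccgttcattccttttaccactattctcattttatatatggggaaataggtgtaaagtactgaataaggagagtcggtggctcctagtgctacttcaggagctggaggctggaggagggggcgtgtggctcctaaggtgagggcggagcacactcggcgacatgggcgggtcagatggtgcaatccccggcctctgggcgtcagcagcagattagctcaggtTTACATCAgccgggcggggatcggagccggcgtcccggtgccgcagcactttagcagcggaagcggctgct
A match is a run of letters and not a shown binding site, and its absence from the other windows says only that these letters are not there.

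Between 9261 and 10572 probes were detected on the compound 177 arrays and between 9634 and 10620 on the control arrays, a probe being detected where the deposited detection p was below 0.05. Skeletal muscle markers were measured on every array: 13 of 13 fast-fibre and common muscle genes passed the filter, with a list mean of 14.93 to 14.99 on the log2 scale in compound 177 muscle and 14.96 to 15.04 in control muscle. The arrays numbered 2 in both groups stood apart. Of 8 probes for 7 hepatocyte marker genes (albumin, transthyretin, fibrinogen and others), 7 were detected on compound 177 replicate 2 and 8 on control replicate 2, against 1 to 3 on the other compound 177 arrays and 2 to 4 on the other control arrays. Values without both arrays are given below where they change a sign. The authors' normalization treated replicates 1 and 2 of both groups as set 1 and replicates 3 and 4 as set 2, and differences are also given within these sets.

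**Figure D1:**
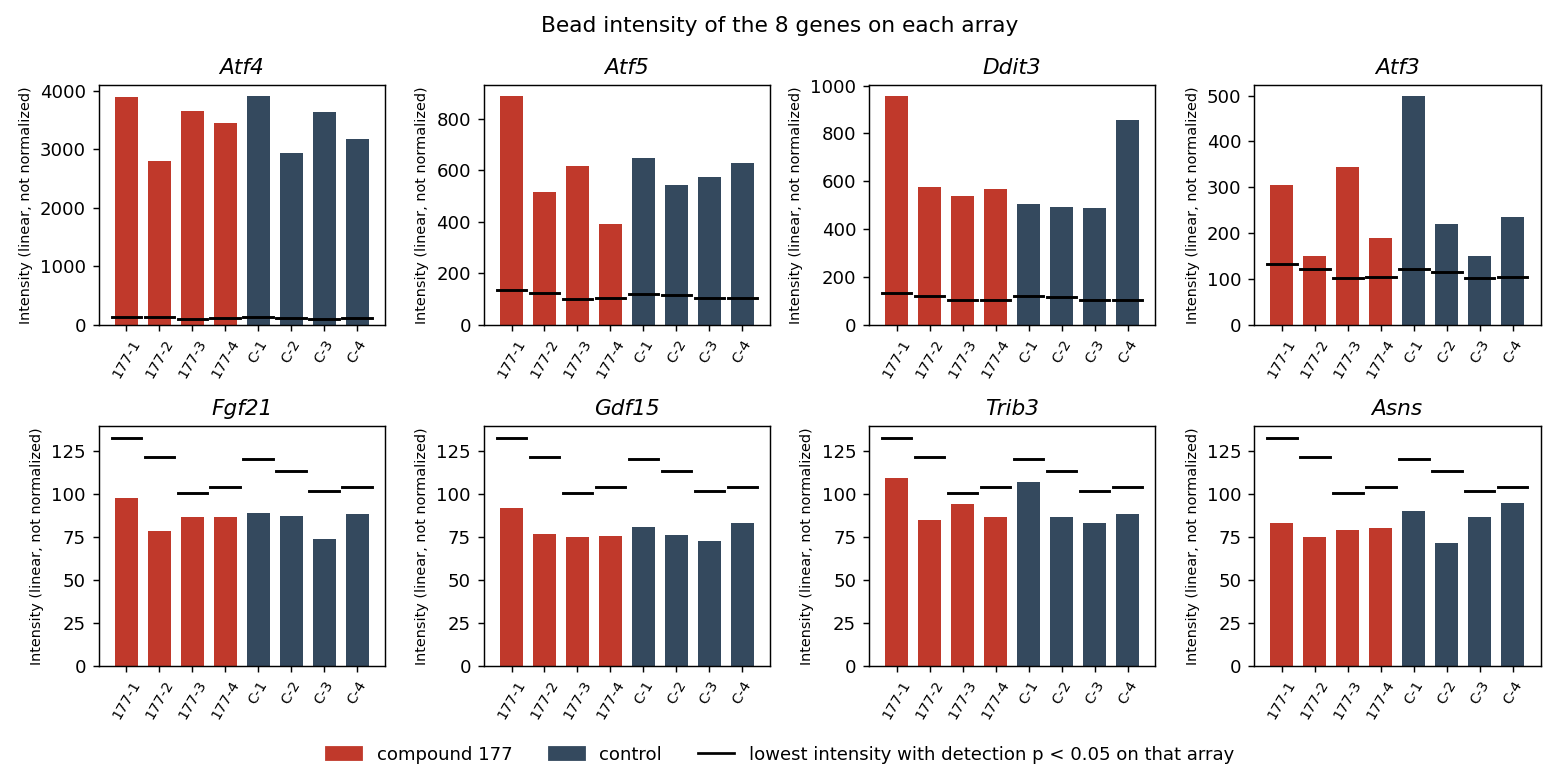
Linear intensity of the probe of each gene on each array, compound 177 replicates 1 to 4 (red) left of control replicates 1 to 4 (dark blue), with a black line at the lowest intensity that had a detection p below 0.05 on that array. Bars of Atf4, Atf5, Ddit3 and Atf3 lie above the line on all 8 arrays and bars of Fgf21, Gdf15, Trib3 and Asns lie below it on all 8.

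Atf4, the central transcription factor of the response, gave intensities of 3884, 2801, 3650 and 3440 in compound 177 replicates 1 to 4 and 3902, 2927, 3639 and 3173 in control replicates 1 to 4. Its detection p was 0 on all 8 arrays, meaning that no background bead type was brighter. The groups overlapped throughout. After normalization the log2 level was 11.67 ± 0.15 in compound 177 muscle and 11.77 ± 0.10 in control muscle (SD, n = 4 each). The difference, compound 177 minus control, was -0.09 (SE 0.12; limma adjusted p = 0.9999). Its 95% confidence interval of -0.35 to 0.17 on the log2 scale spans a level 1.28-fold lower to 1.12-fold higher in compound 177 muscle. Among the 10212 probes tested, 57.4% had a larger absolute difference. Within set 1 the difference of Atf4 was -0.18 and within set 2 it was -0.0054.

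Atf5, a relative of ATF4 that drives the mitochondrial unfolded protein response in mammalian cells, had intensities of 886, 515, 615 and 391 in the compound 177 arrays and 647, 542, 572 and 628 in the control arrays, with a detection p of 0 on all 8. The highest and the lowest value both came from compound 177 rats, replicates 1 and 4, on either side of all controls. The normalized level was 8.96 ± 0.35 in compound 177 muscle and 9.06 ± 0.13 in control muscle (SD, n = 4 each), differing by -0.10 (SE 0.17; limma adjusted p = 0.9999; 95% interval -0.49 to 0.29). The interval spans 1.40-fold lower to 1.23-fold higher. The sign rested on compound 177 replicate 4: without that array the difference was 0.07, and it was 0.14 within set 1 and -0.33 within set 2.

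Ddit3 encodes CHOP, the transcription factor that turns on death and recovery genes in a prolonged response. Its intensities were 956, 575, 540 and 569 in compound 177 replicates 1 to 4, against 503, 492, 489 and 856 in control replicates 1 to 4, and its detection p was 0 on all 8 arrays. All compound 177 values lay above 3 of the 4 controls, but control replicate 4 was brighter than all but compound 177 replicate 1, and after normalization it was the highest of the 8 arrays. The normalized level was 9.14 ± 0.20 in compound 177 muscle and 8.96 ± 0.53 in control muscle (SD, n = 4 each). The difference was 0.18 (SE 0.24; limma adjusted p = 0.9999), with a 95% interval of -0.36 to 0.73, or 1.29-fold lower to 1.66-fold higher. Without control replicate 4 it was 0.44, still uncalled (adjusted p = 0.941), and without compound 177 replicate 1 it was 0.10. Within set 1 it was 0.60 and within set 2 it was -0.23.

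Atf3, a stress-induced transcription factor that the pathway and other injury signals switch on, was the least steady of the 4. Its intensities were 306, 150, 345 and 189 in the compound 177 arrays, with detection p of 0.00242, 0.0145, 0 and 0.00485. In control replicates 1 to 4 they were 498, 219, 149 and 235, with detection p of 0, 0.00242, 0.00606 and 0. Each group held both dim and bright arrays, so that the groups overlapped over almost their whole range. The normalized level was 7.24 ± 0.77 in compound 177 muscle and 7.39 ± 0.90 in control muscle (SD, n = 4 each), differing by -0.15 (SE 0.48; limma adjusted p = 0.9999). The 95% interval of -1.23 to 0.93 spans 2.34-fold lower to 1.90-fold higher. The sign turned in several settings: the difference was 0.22 without control replicate 1, 0.16 without compound 177 replicate 2 and 0.13 without both arrays numbered 2. Within set 1 it was -1.03 and within set 2 it was 0.73.

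Of the 4 tested genes 0 were called by limma at an adjusted p below 0.05, beside 0 of 10212 probes, or 0%, in the whole table. At an unadjusted p below 0.05 the count was 0 of 4, with 3.88% (396) of all tested probes below it. It was 1 of 4, Ddit3, without control replicate 4, beside 478 of 9913 tested probes in that fit. Within set 1 it was again Ddit3 alone, beside 411 of 10212 tested probes. The groups did not overlap for 0 of 4, with 2.41% (246) of all tested probes. Their median difference was -0.09, and that of all tested probes was 0.01. With 4 tested genes none of these shares could be told from the background. The 4 passed the filter on all 8 arrays, so that neither group alone carried them through it.

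**Figure D2:**
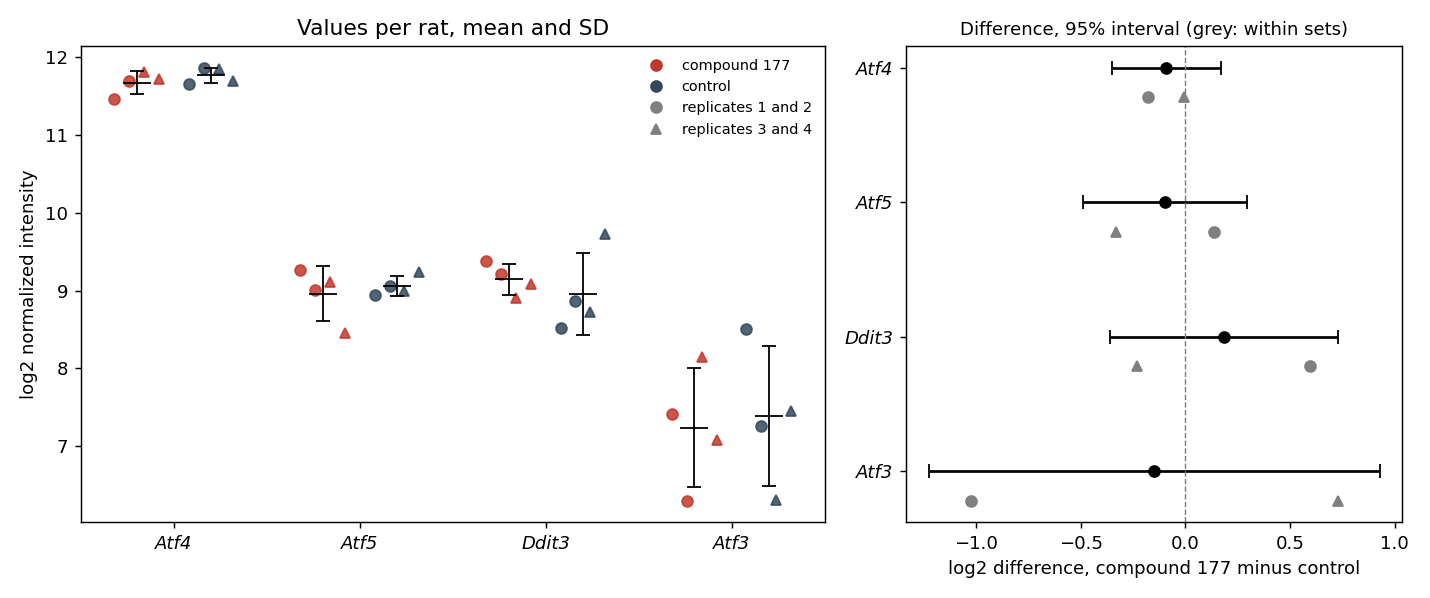
Left, log2 normalized intensity of the 4 detected genes in each rat (compound 177 red, control dark blue, circles for replicates 1 and 2, triangles for replicates 3 and 4) with group mean and SD. Levels of different probes are not comparable. Right, log2 difference, compound 177 minus control, with its 95% confidence interval in black and the differences within set 1 (grey circle) and set 2 (grey triangle). All 4 intervals include 0, and the values of Atf5, Ddit3 and Atf3 within the sets lie on opposite sides of it.

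For the other 4 genes only a bound can be given, and no fold change was computed, since both groups were at background. The lowest intensity with a detection p below 0.05 was 133.0, 121.4, 100.7 and 104.4 on compound 177 arrays 1 to 4 and 120.4, 113.7, 101.6 and 104.3 on control arrays 1 to 4.

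Fgf21 had intensities of 97.8, 78.7, 86.5 and 86.7 in compound 177 replicates 1 to 4 and 88.9, 87.1, 73.9 and 88.7 in control replicates 1 to 4. Detection p was 0.547, 0.836, 0.328 and 0.408 in compound 177 muscle, against 0.594, 0.361, 0.865 and 0.398 in control muscle. The liver is the main source of circulating FGF21, and the probe was at background also on the arrays numbered 2, where hepatocyte transcripts were present. The hepatocyte marker Tat was detected on control replicate 2 but not on compound 177 replicate 2. A dim liver transcript could thus stay unseen there, and whether the probe reports liver Fgf21 was not tested.

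Gdf15, which encodes a hormone that acts on the hindbrain receptor GFRAL to reduce feeding, had intensities of 91.7, 77.1, 75.2 and 75.4 in compound 177 muscle and 80.6, 76.0, 72.7 and 83.3 in control muscle. Detection p was 0.719, 0.880, 0.838 and 0.872 in the compound 177 arrays, against 0.867, 0.777, 0.907 and 0.621 in the control arrays. No array came near detection.

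**Figure D3:**
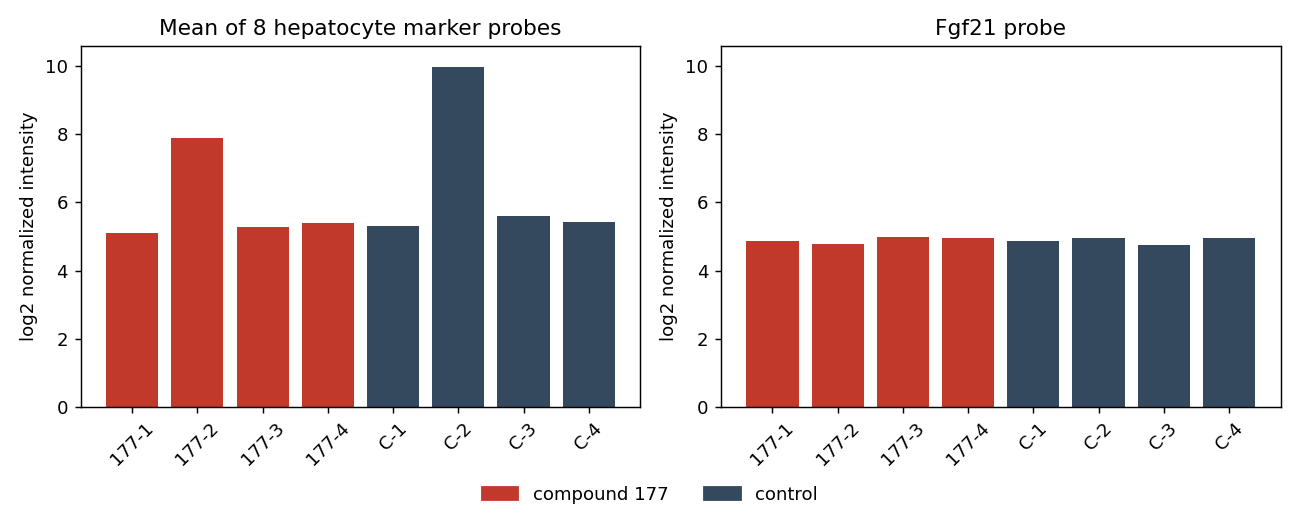
Mean log2 normalized intensity of 8 hepatocyte marker probes (left) and log2 normalized intensity of the Fgf21 probe (right) on each array, compound 177 replicates left of control replicates. The marker mean was 7.90 on compound 177 replicate 2 and 9.98 on control replicate 2, against 5.10 to 5.39 and 5.31 to 5.61 on the other arrays of each group, while Fgf21 stayed between 4.75 and 4.97 on all 8.

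Trib3, a pseudokinase that CHOP and ATF4 induce and that restrains insulin signalling and ATF4 itself, had intensities of 109.7, 85.1, 94.0 and 86.6 in compound 177 muscle and 107.4, 86.6, 83.1 and 88.3 in control muscle. Its detection p was 0.269, 0.625, 0.137 and 0.411 in the compound 177 arrays, against 0.143, 0.375, 0.462 and 0.413 in the control arrays. It came closest to detection on compound 177 replicate 3 and control replicate 1.

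Asns, the asparagine synthetase that is a classical ATF4 target, had intensities of 83.0, 75.3, 79.1 and 80.4 in compound 177 muscle and 90.1, 71.3, 86.8 and 94.8 in control muscle. Its detection p was 0.938, 0.919, 0.662 and 0.684 in the compound 177 arrays, against 0.554, 0.915, 0.316 and 0.184 in the control arrays. When all 22523 probes were fitted without a filter, the adjusted p of each of these 4 genes was 0.9998, and the smallest unadjusted p was that of Asns (0.126). A transcript present below the detection limit in either group could not be seen on these arrays.

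Genes around the pathway were grouped in 9 lists. These covered the kinases and eIF2, the mitochondrial relay, ATF4 targets, the endoplasmic reticulum response, mitokine receptors and effectors and immediate early genes. In each list 0 genes were called higher and 0 lower. With 0 of 10212 tested probes called in the whole table, this is not particular to the lists. Beside the counts above or below control in each list, 53.4% of all tested probes lay above 0. Upstream, 10 of the 14 tested genes of the kinase and eIF2 list were above control, with a median of 0.08 on the log2 scale. Eif2s1, the eIF2 subunit that is phosphorylated, differed by 0.13 (SE 0.14). The kinases differed by -0.08 for Eif2ak1 (SE 0.14), the haem-regulated kinase HRI that DELE1 activates, by -0.25 for Eif2ak3 (SE 0.21), the kinase PERK of the endoplasmic reticulum, and by 0.11 for Eif2ak4 (SE 0.14), the amino acid sensor GCN2. Eif2ak2, the double-stranded RNA sensor PKR, was added after its value was seen and differed by 0.19 (SE 0.16), the highest difference of the list. Dnajc3, an inhibitor of some of these kinases, differed by 0.18 (SE 0.13). Ppp1r15a, the phosphatase subunit GADD34 that ends the response, differed by -0.10 (SE 0.26), and by 0.24 without both arrays numbered 2. Eif2ak3 differed by 0.04 without those arrays. Near background, Eif2ak3 was detected on 3 compound 177 and 4 control arrays, Eif2ak4 on 3 and 3, and Eif2ak2 on 4 and 3.

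In the mitochondrial relay list 8 of 11 tested genes were above control (median 0.02). Besides Oma1 and Dele1 the list held mainly mitochondrial chaperones and proteases, so its counts and median do not describe the relay alone. Oma1 stood at 8.88 ± 0.16 in compound 177 muscle and at 8.64 ± 0.23 in control muscle (SD, n = 4 each). It differed by 0.24 (SE 0.14), and Dele1 differed by 0.24 (SE 0.22). The unadjusted p was below 0.05 for 2 of the 11, beside 3.88% of all tested probes. These were Hspe1 and Opa1; Opa1 is named after its value was seen. Hspe1, the mitochondrial chaperonin HSP10, had levels of 10.13, 10.10, 10.19 and 10.20 in compound 177 replicates 1 to 4 and 9.87, 9.91, 9.88 and 9.90 in control replicates 1 to 4. Its groups did not overlap, with a difference of 0.26 (SE 0.09). In the limma fit over the 10212 tested probes its unadjusted p was 0.0179 and its adjusted p was 0.9999. It was the 1 gene of the 11 without overlap, beside 2.41% of all tested probes. Opa1, the inner membrane fusion protein that OMA1 cleaves, differed by 0.47 (SE 0.17; adjusted p = 0.9999). Yme1l1, the other protease that cleaves OPA1, differed by -0.07 (SE 0.09). The median of the list was 0.16 within set 1 and -0.08 within set 2.

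Downstream, ATF4 target lists did not lean the same way. In the list named for serine, glycine and one-carbon metabolism 5 of 7 tested genes were above control (median 0.11). The list also held genes of cysteine synthesis (Cth and Cbs) and of proline synthesis (Pycr1 and Aldh18a1). The 2 genes below control were Pycr1 and Aldh18a1. Shmt2, the mitochondrial serine hydroxymethyltransferase, was at 0.24 (SE 0.16) and Pycr1, a proline synthesis enzyme, at -0.12 (SE 0.14). Pycr1 lay near background and was detected on 1 compound 177 and 3 control arrays, so that it passed the filter mainly through control muscle. Another 5 genes of that list were not tested because too few arrays detected them; they included Phgdh, which catalyses the entry step of serine synthesis and was detected on 0 of 8 arrays. Of 9 amino acid transporters 3 were tested (median -0.13), with Slc3a2, the shared heavy chain, at 0.04 (SE 0.11) and Slc1a5, a glutamine carrier, at -0.39 (SE 0.28). Cytosolic aminoacyl-tRNA synthetases were above control for 9 of 12 genes (median 0.07). Yars1, the tyrosine enzyme, did not overlap between groups and differed by 0.21 (SE 0.10; limma adjusted p = 0.9999). It was the 1 gene of the 12 without overlap, again beside 2.41% of all tested probes. Tars1, the threonine enzyme, differed by -0.04 (SE 0.13; 0.036 without both arrays numbered 2).

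Among the other targets of ATF4 and CHOP, 5 of 16 tested genes were above and 11 below control (median -0.04). Chac1, a glutathione-degrading enzyme, differed by 0.19 (SE 0.33) and Ddit4, the mTORC1 inhibitor REDD1, by -0.02 (SE 0.37; 0.094 without both arrays numbered 2). Eif4ebp1, an inhibitor of cap-dependent translation, differed by -0.24 (SE 0.20). The dimer partners of ATF4 differed by -0.17 for Cebpb (SE 0.19) and 0.05 for Cebpg (SE 0.19; -0.01 with median scaling and -0.14 without both arrays numbered 2). Ndrg1 differed by -0.38 (SE 0.19) and Atg12, an autophagy gene, by 0.12 (SE 0.12). Sesn2, an amino acid sensor induced by ATF4, was detected on 0 of 8 arrays. In the list of the endoplasmic reticulum response 11 of 14 tested genes were below control (median -0.08), among them the protein disulfide isomerase Pdia4 at -0.20 (SE 0.15), while the secreted factor Manf was at 0.05 (SE 0.13).

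Of 14 genes listed as mitokine receptors and effectors 11 had a probe and 5 were tested (median -0.02). Fgfr4, at -0.02 (SE 0.21), was the only mitokine receptor tested. Too few arrays detected Fgfr2, Fgfr3 and Ret for a test. The fatty acid receptor Ppara differed by 0.24 (SE 0.19) and Metrnl, another secreted factor of muscle and fat, by -0.38 (SE 0.23). The median was 0.29 within set 1 and -0.29 within set 2. Immediate early genes, which like Atf3 respond within minutes to handling and injury, were above control for 12 of 19 tested genes (median 0.03). Dusp1, a MAP kinase phosphatase, differed by 0.34 (SE 0.23), and Klf6 by -0.14 (SE 0.14).

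**Figure D4:**
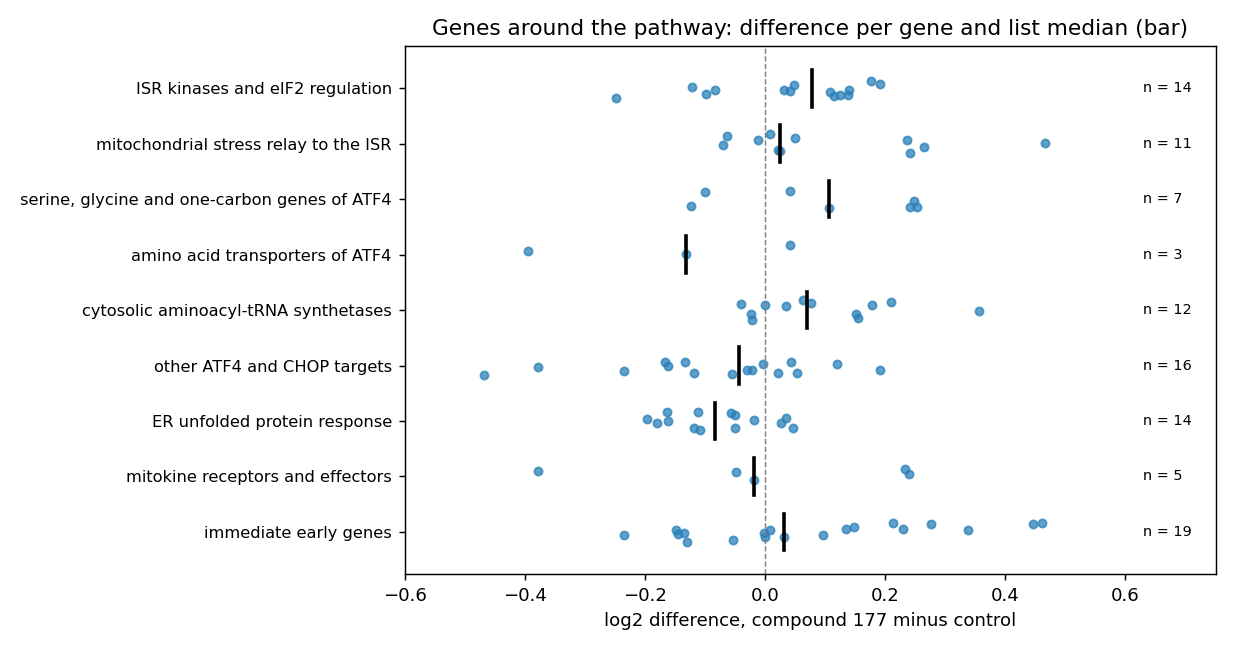
Log2 difference, compound 177 minus control, of every tested gene (point) in 9 lists around the integrated stress response, with the list median as a black bar and the number of tested genes at the right. Medians lie between -0.13 and 0.11, and the genes of each list lie on both sides of 0.

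Markers of other cells in the muscle differed in level between the arrays. Macrophage markers were below control for 8 of 9 tested genes (median -0.29), with a list mean of 6.47 to 7.74 in compound 177 muscle and 7.20 to 7.76 in control muscle. The complement gene C1qb differed by -0.79 (SE 0.36), and Cd74, of antigen presentation, by 0.03 (SE 0.22; -0.03 with median scaling). Fibroblast and matrix markers were below control for 10 of 10 (median -0.62), with means of 10.05 to 11.66 in compound 177 muscle and 10.94 to 11.72 in control muscle, and Postn at -1.30 (SE 0.59). Slow-fibre markers were below control for 10 of 10 (median -1.08), and 2 of them, Tpm3 and Myh7, had an unadjusted p below 0.05, beside 3.88% of all tested probes. Their list mean was 12.08, 10.13, 10.004 and 10.43 in compound 177 replicates 1 to 4 and 10.44, 12.24, 11.89 and 12.52 in control replicates 1 to 4. Replicate 1 of each group ran against the other arrays of its group, high in compound 177 and low in control muscle. Tpm3 differed by -0.66 (SE 0.20), and Myh7 and Tnnt1, named after their values were seen, by -1.71 (SE 0.75) and -1.80 (SE 0.84). Hepatocyte markers were below control for 3 of 3 tested genes (median -0.94), with Cyp2e1 at -0.94 (SE 1.14). Means over these genes were 5.30 to 9.02 in compound 177 muscle and 5.91 to 11.26 in control muscle. Replicate 2 held the highest mean in each group. Serpina1 was detected on 1 compound 177 and 4 control arrays, and Cyp2e1 on 2 and 4. Both thus passed the filter mainly through control muscle, and this list gives no group direction. Of muscle fibre markers, Mb differed by 0.12 (SE 0.16) and Des by -0.16 (SE 0.11). Atf3, Ddit3 and Atf5 are expressed in several of these cell types; the part of these cells in the values above was not tested, and in whole muscle fewer cells of a type and less RNA per cell cannot be told apart.

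Likeness across the 8 arrays was measured as the Pearson correlation of log2 levels with 7298 other named genes, as a description. Each array enters every gene's profile, so shared features of an array raise these values, and the highest of so many correlations over 8 points are high for any gene. The genes most like Atf4 were Cdc14a (r = 0.97), Mark3 (r = 0.94) and Dennd1c (r = 0.93). For Atf5 they were Acad9 (r = 0.94), Lrrc8d (r = 0.93) and Mfge8 (r = 0.90). For Ddit3 they were Stmn1 (r = 0.96), Atp1b1 (r = 0.95) and Slc16a1 (r = 0.93), and for Atf3 they were Zc4h2 (r = 0.94), Sav1 (r = 0.94) and Prdm2 (r = 0.93). No member of the 8 genes was among these 12 genes.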

How the data were processed

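The members and gene lists were chosen with earlier results of these data known. Per the file headers, the authors deposited a table of non-normalized linear intensity per probe and array, with a detection p-value beside each value. The detection p-values move in steps of 1 in 825, as computed from the smallest one above 0. The authors' deposited normalized intensity table, identical to the series' value table (largest difference 0, linear, not centred), was an alternative; sorting shows 2 sets of 4 arrays that share all values. Its 8 detection p columns were not used. The scanner software was not given in the sources used here, nor was a background step.

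Intensities were background-corrected from the detection p-values, quantile-normalized and taken to log2 with neqc (offset 16) of limma 3.58.1 in R 4.3.3. Probes detected (p below 0.05) on at least 4 of 8 arrays were fitted with lmFit and eBayes without covariates, with Benjamini-Hochberg adjustment over 10212 probes. Symbols came from the platform annotation (13793 probes with 1 symbol, 0 with several, 8730 with none). A gene with several probes took the brightest tested one. Lists were described by counts and medians, without a set test. Named genes are the 8 members, the gene with the smallest p in each direction of each list, a fixed set of genes with direct roles where tested, and the 3 genes most like each tested member. The fit was tested on simulated data. With 4 arrays a group, standard errors had a median of 0.16. The design text gives 4 rats per group, taken as separate animals. Same-numbered arrays of the groups correlated in their deviations from the group means at 0.24, 0.47, 0.12 and 0.43 for numbers 1 to 4. The highest correlation of each compound 177 array with an unlike-numbered control array was 0.05, -0.08, 0.29 and 0.24, above the same-numbered value for number 3 only. Same-numbered arrays were treated as pairs in an alternative fit with a replicate block. The numbering comes from the labels, which do not say what it marks.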

Additional observations from a re-analysis of the deposited data

Results flagged for a closer look

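Hepatocyte marker probes had a mean log2 level of 7.90 on compound 177 replicate 2, against 5.10 to 5.39 on the other compound 177 arrays, and of 9.98 on control replicate 2, against 5.31 to 5.61 on the other control arrays. Each stood apart from the other 3 arrays of its group by more than 82.9% of the group's whole range. Slc3a2, the heavy chain shared by amino acid transporters, was low on compound 177 replicate 1, at 10.70 against 10.996 to 11.04 on the other compound 177 arrays. Of 94 groups of 4 values examined 3 stood out in this way, and chance alone gives about 1 in 20. The source of the hepatocyte transcripts was not tested.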

How the results depend on the processing

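No probe was called in any of the 22 alternatives, which covered filters, background corrections, scalings, the authors' normalized table, blocks, array weights and arrays left out. With the replicate block 0 probes were called (smallest adjusted p = 0.745), 657 had an unadjusted p below 0.05 against 396 without it, and no call changed. Of the 4 tested members Ddit3 had an unadjusted p below 0.05 within set 1 and without control replicate 4. No tested member did in the other alternatives. Among all tested probes 411 of 10212 were below it within set 1 and 478 of 9913 without control replicate 4. Median scaling gave 126 such probes. The difference of Atf4 was below 0 in every alternative, but it was near 0 in some. It was -0.0054 (SE 0.15) within set 2 and -0.0079 (SE 0.21) with median scaling. Signs turned as follows, and the cause was not tested beyond the arrays or weights named. Within set 1 the difference was 0.14 for Atf5, -0.11 for Slc3a2, -0.28 for Cd74, -0.10 for Chac1 and 0.25 for Ddit4. Within set 2 it was 0.73 for Atf3, -0.23 for Ddit3, 0.14 for Pycr1, 0.18 for Tars1, -0.078 for Dusp1, -0.053 for Mb, 0.13 for Cyp2e1, -0.010 for Eif2ak4, 0.43 for Ppp1r15a, -0.24 for Cebpg and 0.20 for Eif4ebp1. With array weights it was 0.12 for Atf3, 0.0057 for Tars1, 0.14 for Ppp1r15a and -0.070 for Cebpg. With median scaling it was -0.025 for Cd74 and -0.010 for Cebpg. Without both arrays numbered 2, chosen after seeing the data, it was 0.13 for Atf3, 0.037 for Eif2ak3, 0.036 for Tars1, 0.24 for Ppp1r15a, 0.094 for Ddit4 and -0.14 for Cebpg.

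With 1 array left out at a time the difference ran from -0.51 to 0.22 for Atf3, -0.14 to -0.02 for Atf4, -0.20 to 0.070 for Atf5 and 0.04 to 0.44 for Ddit3. It ran from -0.093 to 0.035 for Tars1, -0.028 to 0.10 for Manf, -0.025 to 0.23 for Mb, -0.14 to 0.20 for Cd74, -1.68 to 0.20 for Cyp2e1, -0.28 to 0.12 for Ppp1r15a, -0.12 to 0.43 for Chac1, -0.29 to 0.24 for Ddit4 and -0.10 to 0.21 for Cebpg. Without a change of sign it ran from 0.0088 to 0.18 for Eif2s1, -0.17 to -0.0083 for Eif2ak1 and 0.012 to 0.17 for Eif2ak4, nearest 0 without compound 177 replicate 4, compound 177 replicate 1 and control replicate 2 in that order. At a detection p below 0.01, set after seeing the data, Atf3 was detected on 7 arrays in place of 8, and the other 7 genes kept their counts at 0.01 and at 0.1. Signals near background limit Atf3 and leave Fgf21, Gdf15, Trib3 and Asns without a measured difference. They also limit Eif2ak2, Eif2ak3, Eif2ak4, Pycr1 and Ppara, which were not detected on every array.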

Other observations

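Slc7a11, the cystine carrier that ATF4 induces, was at background on all 8 arrays and was singled out after its values were seen. Its intensities were 108.8, 95.6, 95.002 and 86.6 in compound 177 replicates 1 to 4 and 86.1, 77.7, 77.8 and 83.1 in control replicates 1 to 4, so that the groups did not overlap, higher in compound 177 muscle. Its detection p was 0.118 to 0.412 in compound 177 muscle and 0.623 to 0.712 in control muscle. No fold change can be given at background, and the probe was not among those tested. Edem1, of protein degradation in the endoplasmic reticulum, also did not overlap at background, but was lower, at log2 levels of 4.86, 4.80, 4.84 and 4.86 in compound 177 replicates 1 to 4 and 4.92, 4.91, 4.87 and 5.07 in control replicates 1 to 4. These were 2 of the 39 list genes not tested, beside 2.29% (282) of the 12311 probes not tested in the whole table, 158 of them higher and 124 lower.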
